A study of Homo sapiens with 6 samples.

Results

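Nuclear receptors are transcription factors that bind DNA directly, many of them switched by small fat-soluble ligands such as steroids, thyroid hormone, retinoids, vitamin D, fatty acids and heme. The members described here are the genes whose Ensembl identifiers map to a list of 33 nuclear receptor symbols. Of these, 30 had a row among the 30330 genes of the deposited tables, and PGR, RXRG and NR1H4 were not analysed here. All 30 passed the filter on low values, so that 30 of the 24560 tested genes are members.

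RNA sequencing compared NCI-H1975, an established human lung adenocarcinoma cell line, with H1975/OSI, a single resistant line derived from it. Per the labels, H1975/OSI was obtained by stepwise exposure to 0.03, 0.1, 0.3, 1 and 3 µM osimertinib, an inhibitor of the EGFR kinase, over 7 months. The 3 resistant libraries are titled Drug and the 3 control libraries Control. Whether osimertinib was present at harvest, and which serum, hormones or vitamins the medium held, is not given in the sources used here. No label states that libraries of a group were separate cultures. The p-values therefore reflect the spread among libraries, and that spread may be technical.

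Recovered reads ranged from 15174126 to 16276518 in resistant and from 15813497 to 16588479 in control libraries. Resistant library 1 stood apart: the chi-square per gene was 12.1 against resistant 2 and 13.5 against resistant 3, while the other pairs within a group gave 2.42 to 3.93. The mitochondrial share of reads was 5.33% to 5.66% in resistant and 6.46% to 7.34% in control libraries. Of the 8 lung adenocarcinoma markers, KRT7 was abundant in both lines (11963 to 14099 normalized read counts in resistant, 12757 to 13758 in control libraries). NKX2-1 was also present, as were KRT8 (mean 16385 in resistant and 23304 in control libraries) and KRT18 (7556 and 10013). The surfactant gene SFTPB was near 0 in both lines (at most 1.97 and 8.67). Of the 8, 4 were lower and 1 higher at a limma adjusted p under 0.05, beside 21.1% and 20.4% of all genes. The epithelial markers EPCAM and CDH1 were lower in the resistant line, EPCAM at 15.7 to 19.7 against 353 to 391 and CDH1 at 96.9 to 126 against 331 to 409. The summed level of the 8 was 35809 to 39595 in resistant and 46401 to 48871 in control libraries. The 2 measured of 5 lymphocyte markers summed to 35.1 to 52.0 against 23.9 to 31.8, with CD3D at 0 in every resistant library. The 4 myeloid markers summed to 316 to 356 against 492 to 511, with LYZ at 0 to 2.04. The 4 endothelial markers summed to 557 to 759 against 290 to 332, with CDH5 higher (464 to 670 against 123 to 129), PECAM1 lower (78.9 to 88.7 against 157 to 199) and VWF at or below 9.23. The 3 measured of 5 fibroblast markers summed to 4807 to 5378 against 4426 to 5323, and LUM was at or below 8.88. The part of these differences in the receptor results was not tested.

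Most receptors of this family bind DNA as pairs. RXR is the shared partner of the retinoic acid, thyroid hormone, vitamin D, PPAR and LXR receptors, so the level of an RXR gene bears on several ligand pathways at once. Among steroid receptors, those for corticosteroids are largely held in the cytoplasm on HSP90 until hormone arrives. REV-ERB receptors, encoded by NR1D1 and NR1D2, need no steroid and repress genes of the circadian clock, whose activators bind the E-box CACGTG. The NR4A receptors are immediate early genes that are induced within hours of many stimuli. Retinoic acid receptors are known in epithelia for their part in differentiation, and the glucocorticoid receptor is the target of steroids used in lung disease.

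The 5 members whose promoters are shown were selected after their values had been seen. They hold the largest rise and fall past the test among members with a mean of at least 100 over the 6 libraries (PPARA and NR1D1), the fall beside PPARA within the PPAR subfamily (PPARG), the relative of NR1D1 (NR1D2) and RARB. RARB is shown because its promoter carries the textbook retinoic acid response element. Each sequence is the 250 bases before a RefSeq start site on GRCh38.p14, read 5′ to 3′ on the gene's strand, with the 3 motifs named below the sequences in capitals. PPARA is read at chr22:46150276-46150525 (plus strand), PPARG at chr3:12287118-12287367 (plus), NR1D1 at chr17:40100590-40100839 (minus), NR1D2 at chr3:23945871-23946120 (plus) and RARB at chr3:25428013-25428262 (plus).
PPARA: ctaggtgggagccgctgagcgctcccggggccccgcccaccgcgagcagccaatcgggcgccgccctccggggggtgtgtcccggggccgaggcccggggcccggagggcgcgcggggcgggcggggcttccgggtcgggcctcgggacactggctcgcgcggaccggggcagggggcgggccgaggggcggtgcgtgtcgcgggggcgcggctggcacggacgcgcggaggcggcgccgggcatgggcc
PPARG: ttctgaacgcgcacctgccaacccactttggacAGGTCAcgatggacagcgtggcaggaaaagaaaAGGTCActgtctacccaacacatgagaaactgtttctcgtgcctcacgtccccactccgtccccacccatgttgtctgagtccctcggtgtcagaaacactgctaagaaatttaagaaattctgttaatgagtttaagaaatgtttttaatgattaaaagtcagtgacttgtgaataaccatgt
NR1D1: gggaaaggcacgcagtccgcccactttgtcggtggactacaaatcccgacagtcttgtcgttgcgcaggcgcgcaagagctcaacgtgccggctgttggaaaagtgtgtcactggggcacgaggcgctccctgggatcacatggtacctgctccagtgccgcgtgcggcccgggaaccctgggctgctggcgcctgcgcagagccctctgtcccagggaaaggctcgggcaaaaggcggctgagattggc
NR1D2: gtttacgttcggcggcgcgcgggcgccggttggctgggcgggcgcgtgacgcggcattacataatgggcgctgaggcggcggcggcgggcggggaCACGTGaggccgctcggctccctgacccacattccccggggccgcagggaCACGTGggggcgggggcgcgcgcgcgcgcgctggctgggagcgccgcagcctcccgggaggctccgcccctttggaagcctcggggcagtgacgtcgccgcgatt
RARB: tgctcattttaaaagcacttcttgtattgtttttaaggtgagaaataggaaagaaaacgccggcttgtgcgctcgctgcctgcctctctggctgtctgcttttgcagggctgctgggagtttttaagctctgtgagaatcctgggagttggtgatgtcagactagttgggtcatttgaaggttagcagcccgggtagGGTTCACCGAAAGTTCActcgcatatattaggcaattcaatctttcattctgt

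The capitals mark AGGTCA (the hexamer that most nuclear receptors recognise) in PPARG, CACGTG (the E-box) in NR1D2, and, in RARB, the retinoic acid response element, which is GGTTCA and AGTTCA with any 5 bases between them. Both strands were searched, and the hexamer can lie within longer receptor elements. PPARG holds AGGTCA at -217 to -212 and at -184 to -179, counted from the start site. NR1D2 holds CACGTG at -155 to -150 and -105 to -100, before 1 of its 2 listed starts. In RARB the response element lies at -53 to -37. The cyclic AMP element core TGACG was searched too and is left in lower case; among the windows shown it lies in NR1D2 alone, at -204 to -200 and -16 to -12, and 21.2% of all promoters hold it. Among 35116 RefSeq promoters of this length, AGGTCA occurred in 12.1%, CACGTG in 6.34% and the response element in 6, or 0.0171%. The 30 of 33 listed symbols with an entry, PGR, RXRG and NR1H4 among them, have 71 starts, of which 10 held AGGTCA, 5 held CACGTG and 1 held the response element. The PPARA window holds none of these letters and is 84.4% G and C, against a median of 58.0% over all promoters, and the NR1D1 window holds none of them either. No entry was found for VDR, NR2F6 and NR4A2. A match is a description of letters, and reads summed per gene do not tell start sites apart.

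Across the family, receptors rose and fell in equal number. Among the 30 members, 7 were higher in the resistant line (NR3C2, PPARA, PPARD, RXRA, RXRB, THRB and NR2C1) and 7 lower (ESR2, ESRRA, PPARG, RARG, THRA, VDR and NR1D1). Over all 24560 genes, 20.4% were called higher and 21.1% lower, or 41.5% in either direction, by limma with Benjamini-Hochberg adjustment at 0.05. The members' 14 calls of 30 are near that background. With median centring of each library, which moves the median of all genes by -0.13, the members split into 4 higher and 8 lower, and all genes into 3713 higher and 6666 lower against 5010 and 5194.

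Every value below is a normalized read count, and a fold change is the difference of log2(value + 1), resistant minus control, with its standard error and limma's adjusted p. The members' median log2 fold change was 0.08, beside 0.01 for all genes, and the median absolute value was 0.32 against 0.45. Restricted to genes with a mean of at least 100 over the 6 libraries, 13 of 25 members (52.0%) and 63.1% of 11230 genes were called. A 2-fold change with a call was reached by PPARA upward and by NR1D1 and ESR2 downward, where 7.86% of all genes rose and 5.72% fell that far. Resistant libraries lay above all controls for 10 members and below all controls for 7, against 24.7% and 25.4% of all genes. In bulk RNA, fewer cells of a type and less RNA per cell cannot be told apart.

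**Figure D1:**
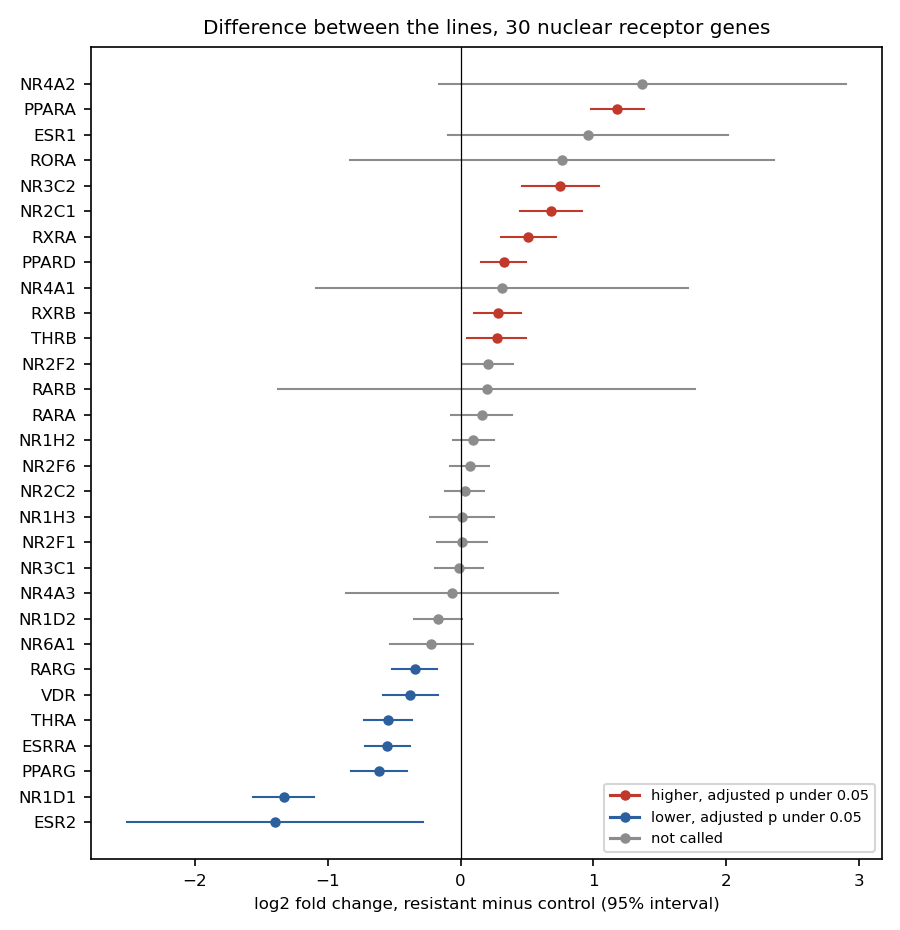
Log2 fold change of the 30 members (horizontal axis, resistant minus control, with 95% confidence intervals), ordered by value and coloured by whether limma's adjusted p was under 0.05. Among called members with a mean of at least 100, PPARA (1.18) and NR1D1 (-1.33) lie farthest out, and NR4A2 (1.37, not called), RORA, RARB, NR4A1 and ESR2 have the widest intervals.

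Of the corticosteroid receptors, NR3C2 was called higher and NR3C1 was not called. NR3C1, the glucocorticoid receptor, is the most counted member, at 3467, 2624 and 2670 in resistant libraries 1 to 3 and 2887, 2857 and 3008 in controls. The groups overlapped, with resistant 1 highest and resistant 2 lowest, and the log2 fold change was -0.01 ± 0.09 (95% interval -0.19 to 0.17, limma adjusted p = 0.939). Without resistant 1 it was called lower, by -0.14 (limma adjusted p = 0.0326), and its sign is not settled, since it turned with edgeR, DESeq2 and quantile normalization. NR3C2, the mineralocorticoid receptor, which binds aldosterone and also cortisol, stood at 169, 209.5 and 190 against 99.6, 123 and 115. All resistant libraries lay above all controls, and NR3C2 rose by 0.75 ± 0.14 (limma adjusted p = 0.000108), which held in all 17 alternative settings. Per kilobase, NR3C2 made up 8.45 ± 1.88% of the pair in resistant and 5.07 ± 0.53% in control libraries (SD, n = 3).

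Targets of the glucocorticoid receptor were mostly higher. Of 12 listed targets, 11 were tested, 7 were higher and 2 lower, with a median log2 fold change of 0.42 beside 0.01 for all genes. The share called was 81.8%, beside 41.5% of all genes and 63.1% of genes with a mean of at least 100. TFCP2L1, a transcription factor, rose from 34.7 ± 5.10 to 134 ± 16.4 (log2 fold change 1.92, limma adjusted p = 1.15e-08). SGK1, a kinase and common target of both corticosteroid receptors, rose from 2790 ± 67.3 to 4494 ± 115 (0.69, limma adjusted p = 2e-09). KLF9, a hormone-induced transcription factor, and SCNN1A, a subunit of the epithelial sodium channel, each rose by 0.57. The remaining higher targets were CEBPD (0.44, limma adjusted p = 1.29e-05), TSC22D3 (0.42, limma adjusted p = 0.000288) and PER1 (0.32, limma adjusted p = 0.00134). The list did not move as a whole. FKBP5, the HSP90 co-chaperone widely used as a readout of this receptor, was at 1184, 1503 and 1507 against 1331, 1241 and 1262. Its groups overlapped and it missed the test (0.12 ± 0.08, limma adjusted p = 0.263). The lower targets were ERRFI1, a feedback inhibitor of EGFR, at -0.58, and DUSP1, a MAPK phosphatase, at -0.35. DUSP1 lost its call with quantile normalization and with limma without a trend.

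Of the 8 chaperones and co-chaperones of steroid receptors, 5 fell and 3 were not called, with a median log2 fold change of -0.60. The 62.5% called compares with 41.5% of all genes and 63.1% of genes with a mean of at least 100. HSP90AA1, the inducible HSP90, fell from 24313 ± 724 to 13353 ± 1094 (-0.87, limma adjusted p = 7.63e-11), and HSP90AB1, the constitutive form, by 0.70 on the log2 scale. STIP1, which hands clients from HSP70 to HSP90, fell from 3675 ± 146 to 2071 ± 179 (-0.83), and HSPA8, the constitutive HSP70, changed by -0.76. The immunophilin FKBP4, the co-chaperone DNAJB1 and BAG1 were not called.

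Enzymes that set hormone supply were lower more often than higher. Of 16 tested of 18 listed, 8 were lower and 1 higher, with a median of -0.28. The share called was 56.25%, beside 41.5% of all genes. H6PD, which supplies NADPH to the cortisol-forming enzyme HSD11B1, rose from 1188 ± 111 to 1859 ± 76.4 (0.65). HSD11B1 itself, outside the naming rule, was called lower on few reads, at 3.06, 5.54 and 0.987 against 17.5, 11.4 and 8.67 (-1.80, limma adjusted p = 0.00711). CYP27B1, which makes active vitamin D, fell from 276 ± 15.5 to 125 ± 19.0 (-1.15, limma adjusted p = 1.35e-07). It shares 107 exonic bases (3.11%) with METTL1 on the same strand, which lay at 196 against 381. SRD5A3, a polyprenol reductase named for its likeness to steroid reductases, fell from 467 ± 17.2 to 230 ± 5.57 (-1.02). DIO2, which activates thyroid hormone, fell from 273 ± 26.6 to 166 ± 25.3 (-0.72). HSD11B2, which inactivates cortisol, fell from 26.6 ± 5.85 to 14.2 ± 1.79 (-0.84, limma adjusted p = 0.0327). The HSD11B2 call was lost without control 2 or 3 or resistant 1 or 3, with adjusted p from 0.0517 to 0.143, and with DESeq2.

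Estrogen receptor transcripts were scarce in both lines. ESR1, which encodes estrogen receptor α, was at 9.18, 10.2 and 4.93 in resistant and 2.05, 4.16 and 4.82 in control libraries. ESR2, for estrogen receptor β, was at 4.08, 0.923 and 2.96 against 8.21, 6.23 and 9.64. The groups did not overlap for either gene, but no library held more than 10.2 normalized reads of either. ESR1 missed the test (0.96 ± 0.51, limma adjusted p = 0.143), and ESR2 was called lower (-1.40 ± 0.54, limma adjusted p = 0.0404). That ESR2 call was lost in 10 of 17 settings, with adjusted p over all 17 from 0.0219 to 0.168. Leaving out resistant 2 or 3 or any control library ended it (-0.99 without resistant 2). ESR2 also shares 523 exonic bases, 5.6% of its exons, with ENSG00000214770 on the same strand, which lies at 8.16 against 17.8.

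ESRRA, an estrogen-related receptor that binds no estrogen and drives mitochondrial genes together with PGC-1 coactivators, was far more abundant. It stood at 622, 763 and 682 in resistant and 1004, 1056 and 962 in control libraries. The groups did not overlap, and ESRRA fell by 0.55 on the log2 scale (standard error 0.08, limma adjusted p = 6.16e-06), in all 17 settings. It shares 284 exonic bases (9.37%) with TRMT112 on the opposite strand, and whether the authors counted by strand is not given in the sources used here. Of the 5 estrogen targets tested, 2 were lower: CCND1, cyclin D1, at -2.14, and MYC at -0.28. Those 2 calls stand beside 41.5% of all genes and 63.1% of genes with a mean of at least 100.

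The PPAR subfamily, receptors for fatty acids and their derivatives, changed its make-up. PPARA (ENSG00000186951, chromosome 22, 46150521 to 46243756), which drives fatty acid oxidation, was at 618, 671 and 688 in resistant and 313, 256 and 304 in control libraries. The groups were far apart. PPARA rose 2.27-fold (log2 fold change 1.18 ± 0.10, 95% interval 0.98 to 1.38, limma adjusted p = 4.9e-10), with 1.05 to 1.24 over the 17 settings. PPARD, the broadly expressed form, was at 1265, 1039 and 1131 against 950, 948 and 838. The groups did not overlap, and PPARD rose by 0.33 ± 0.08 (limma adjusted p = 0.00208). PPARD lost the call with median centring (0.19, limma adjusted p = 0.0628) and with limma without a trend.

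PPARG (ENSG00000132170, chromosome 3, 12287368 to 12434356), the regulator of fat cell differentiation and target of glitazones, was at 247, 221 and 241 against 373, 347 and 367. All resistant libraries lay below all controls, and PPARG fell by 0.62 on the log2 scale (standard error 0.10, limma adjusted p = 2.6e-05) in all 17 settings. Per kilobase, PPARA over PPARG was 0.859, 1.04 and 0.980 in resistant and 0.288, 0.253 and 0.284 in control libraries. Resistant libraries thus held PPARA and PPARG at close to equal levels per length, where controls held more PPARG. This rests on the deposited lengths, 13219 bases for PPARA and 4535 for PPARG, whichever transcripts the lines use. In mean counts, PPARA and PPARG were at 659 and 236 in resistant and at 291 and 362 in control libraries. PPARA made up 13.97 ± 1.62% of the subfamily in resistant and 7.19 ± 0.82% in control libraries, PPARG 14.5 ± 0.341% and 26.1 ± 1.49%, and PPARD the rest. The subfamily total was 23.5 ± 1.18 RPKM (reads scaled by gene length and library depth) in resistant and 18.9 ± 0.697 in control libraries (SD, n = 3).

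**Figure D2:**
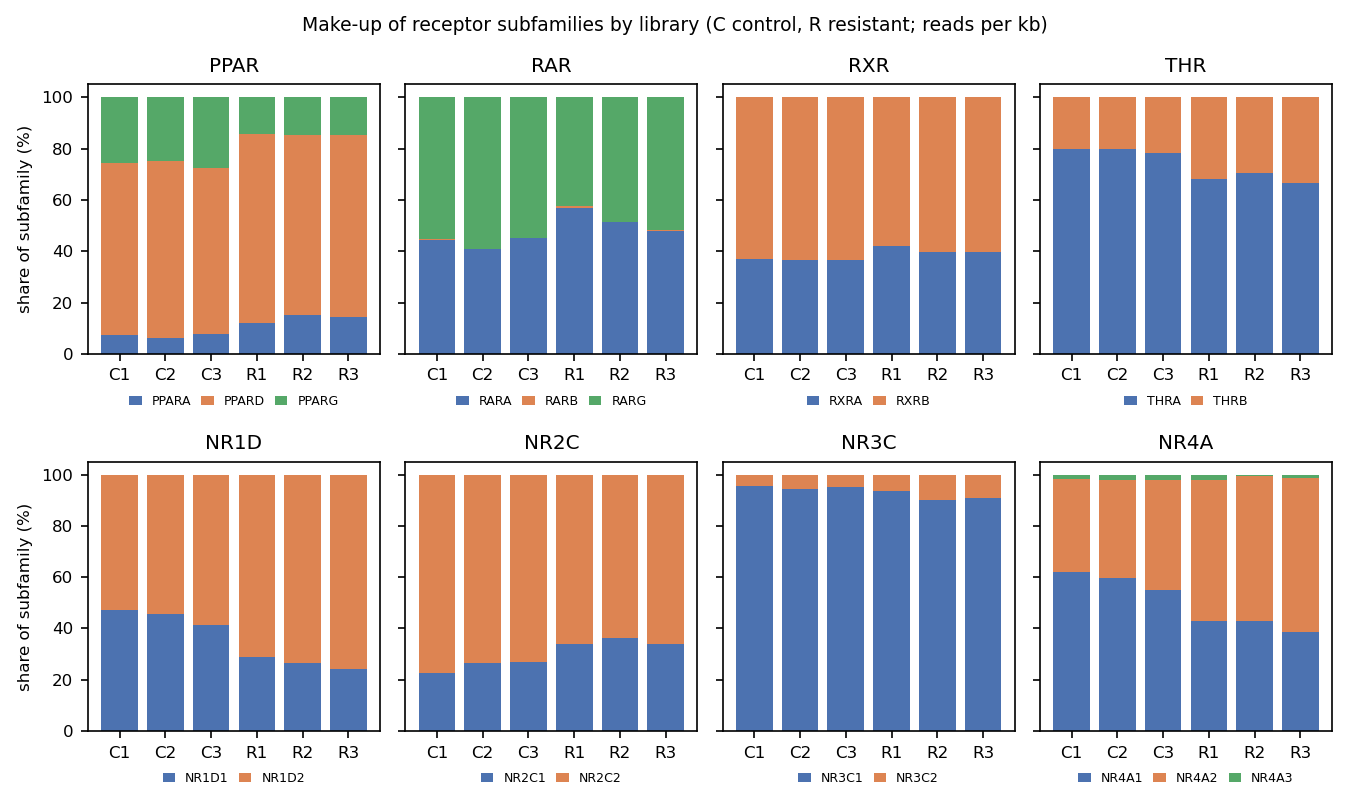
Share of each receptor within its subfamily (vertical axis, percent of reads per kilobase of gene model) in the 3 control (C) and 3 resistant (R) libraries, 1 stacked bar per library. PPARG and NR1D1 take smaller shares and PPARA, THRB and NR2C1 larger shares in every resistant library, and the NR4A bars differ between the groups in resistant 1 too.

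PPAR targets went both ways. Of 12 listed, 10 were tested, 4 were higher and 2 lower, with a median of 0.49 beside 0.01 for all genes. Calls were made for 41.5% of all genes and for 63.1% of genes with a mean of at least 100. HILPDA, a lipid droplet protein that is also a hypoxia target, rose from 664 ± 10.7 to 2688 ± 761 (1.98, limma adjusted p = 0.000426). ACSL1, which activates fatty acids, rose from 902 ± 28.5 to 1454 ± 40.2 (0.69, limma adjusted p = 1.61e-08). ANGPTL4, an inhibitor of lipoprotein lipase and also a hypoxia target, rose by 2.29. Enzymes of the oxidation pathway itself did not share a direction. ACADVL, which starts oxidation of long chains, rose by 0.28 (call lost with limma without a trend). HADHA, the mitochondrial trifunctional protein's α subunit, fell from 4488 ± 113 to 2851 ± 22.7 (-0.65, limma adjusted p = 3.93e-09). CPT1A, the gate for entry into mitochondria, changed by -0.49 (limma adjusted p = 0.00102), a call lost with limma without a trend. PDK4, a kinase that turns off glucose oxidation, was at 353, 923 and 945 against 221, 228 and 231. Its resistant libraries lay above all controls, but resistant 1 was far below the other resistant libraries and the test was missed (1.57, limma adjusted p = 0.055).

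Among retinoid receptors, the RXR partners rose. RXRA was at 2254, 1792 and 1667 in resistant and 1381, 1406 and 1200 in control libraries. RXRB was at 1094, 964.5 and 901 against 839, 861.5 and 736. Neither gene's groups overlapped, and resistant 1 was highest for both. RXRA rose by 0.51 ± 0.10 (limma adjusted p = 0.000391) and RXRB by 0.28 ± 0.08 (limma adjusted p = 0.00948). The RXRB call was lost without control 3 (0.21, limma adjusted p = 0.0809) and with median centring (0.14, limma adjusted p = 0.177), and both calls with limma without a trend (adjusted p = 0.0545 for RXRA and 0.139 for RXRB). RXRB shares 244 exonic bases (6.22%) with SLC39A7 on the opposite strand. Per length, RXRA and RXRB together came to 27.7 ± 2.60 RPKM in resistant and 20.2 ± 1.42 in control libraries (SD, n = 3).

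The retinoic acid receptors themselves did not share that direction. RARA was at 889, 707 and 597 against 648, 656 and 634. The resistant libraries spread around the controls, with resistant 1 highest, and RARA was not called (0.16 ± 0.11, limma adjusted p = 0.265), except without resistant 3 (0.30, limma adjusted p = 0.0177). RARG, the main form in surface epithelia, was at 719, 730 and 699 against 870, 1033 and 838. The groups did not overlap and RARG fell by 0.34 on the log2 scale (standard error 0.08, limma adjusted p = 0.0015), a call lost with limma without a trend. RARB, a receptor gene that retinoic acid itself induces through the response element shown above, was nearly silent. It was at 5.10, 0 and 1.97 against 5.13, 0 and 0.964, at or under the floor of 3 reads on average in both groups. The RAR total was 19.3 ± 1.64 and 19.4 ± 1.11 RPKM, with RARA at 52.1 ± 4.6% in resistant and 43.4 ± 2.32% in control libraries.

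Retinoic acid targets were called in 6 of 7 tested of 9 listed, 4 higher and 2 lower, with a median of 1.78. The share called was 85.7%, beside 41.5% of all genes and 63.1% of genes with a mean of at least 100. DHRS3, which turns retinal back to retinol, rose from 317 ± 23.0 to 1731 ± 404 (2.42, limma adjusted p = 1.6e-08). STRA6, the receptor for retinol-binding protein, rose from 302 ± 24.7 to 1231 ± 99.3 (2.02, limma adjusted p = 7.47e-15). RARRES1 rose from 52.7 ± 19.3 to 175 ± 6.83 (1.78, limma adjusted p = 7.24e-07). CYP26A1, which degrades retinoic acid, falls outside the naming rule and was picked after its values were seen. It was at 14.3, 14.8 and 4.93 in resistant and 0 in all 3 control libraries, at least 3.74-fold higher against a floor of 3 reads per library. CYP26B1, of the same enzyme family, was far more abundant, with a mean of 257 in resistant and 254 in control libraries. The groups of CYP26B1 overlapped, and it was not called (0.02 ± 0.11, limma adjusted p = 0.91). CRABP2, which carries retinoic acid to its receptor, fell from 457 ± 34.5 to 165 ± 55.4 (-1.51, limma adjusted p = 2.4e-05). TGM2, tissue transglutaminase, fell from 9092 ± 418 to 4379 ± 1326 (-1.09, limma adjusted p = 0.0197). The TGM2 call was lost without control 1, 2 or 3 (adjusted p = 0.055, 0.052 and 0.0526). STRA6 shares 7.02% of its exons with CCDC33 and RARRES1 14.8% with MFSD1, both on opposite strands.

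Of 6 tested retinoid enzymes and carriers (9 listed), 4 were lower and 1 higher, with a median of -0.51. The share called was 83.3%, beside 41.5% of all genes. FABP5, which carries fatty acids and retinoic acid to PPARδ, fell from 984 ± 39.9 to 345 ± 32.4 (-1.51, limma adjusted p = 1.04e-12). RDH10 and RDH11, retinol dehydrogenases, changed by -0.67 and -0.21, and ALDH1A3, which makes retinoic acid, by -0.51. RDH11 and ALDH1A3 both lost their calls without control 1 (adjusted p = 0.0565 and 0.0568) and without control 3 (0.058 and 0.0723), and RDH11 also with quantile normalization. All 3, RDH10 included, lost them with limma without a trend. The higher gene, LRAT, which stores retinol as esters, was at 18.4, 1.85 and 8.88 against 0, 1.04 and 0.964, too few reads to size the change. Its call was lost without resistant 1 (limma adjusted p = 0.0638).

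**Figure D3:**
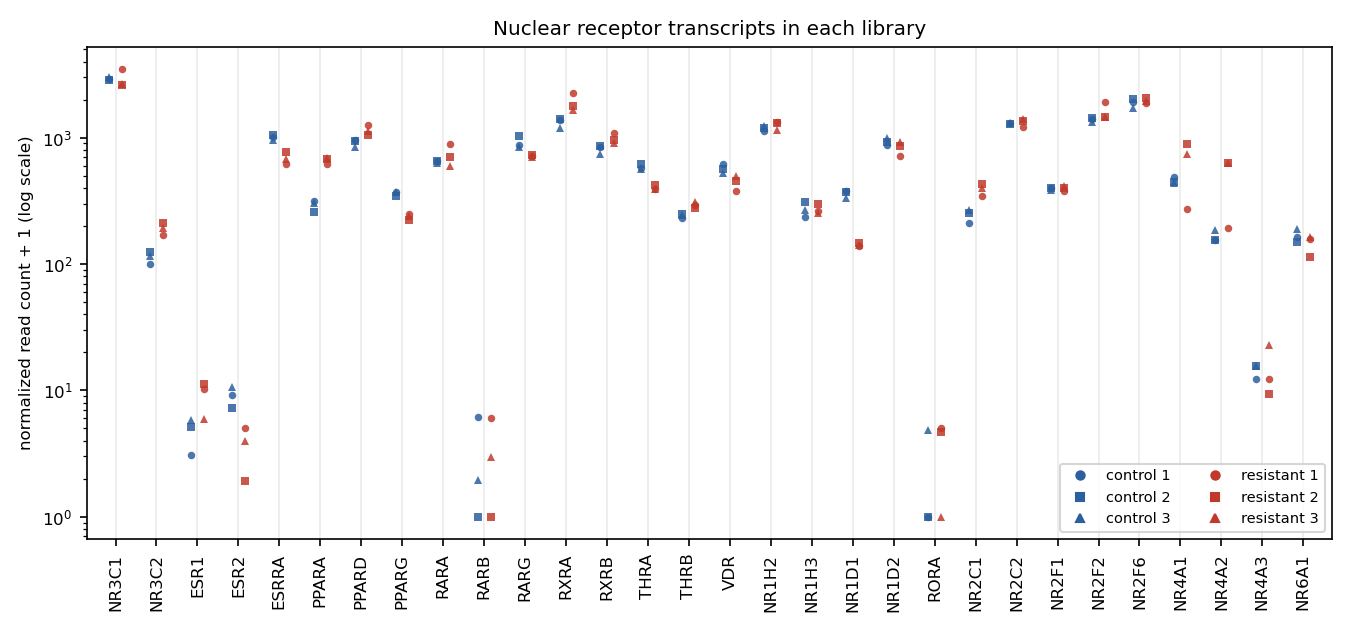
Normalized read counts (log axis) of the members in each of the 6 libraries, plotted as value + 1, with 1 point per library. PPARA, NR3C2 and NR2C1 separate upward and NR1D1, PPARG, THRA and ESRRA downward, while resistant library 1 sits apart from resistant 2 and 3 in NR4A1 and NR4A2.

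The thyroid hormone receptor genes moved in opposite directions. THRA (chromosome 17, 40058290 to 40093867) was at 393, 418 and 391 in resistant and 572, 622 and 560 in control libraries. The groups were far apart, and THRA fell by 0.54 on the log2 scale (standard error 0.09, limma adjusted p = 1.56e-05) in all 17 settings. THRB was at 290, 274 and 307 against 230, 248 and 242. Its groups did not overlap either, and THRB rose by 0.27 ± 0.11 (limma adjusted p = 0.0429). The THRB call was lost in 9 of 17 settings, among them without resistant 3 or any control library (adjusted p from 0.0683 to 0.144), with the replicate block (0.0512) and with median centring (0.14, adjusted p = 0.333). Per length, THRB made up 31.5 ± 1.97% of the pair in resistant and 20.7 ± 0.72% in control libraries.

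VDR, the vitamin D receptor, was at 374, 449.5 and 493 against 613, 567 and 525. The groups came close but did not overlap, and VDR fell by 0.38 on the log2 scale (standard error 0.10, limma adjusted p = 0.00336), lost with limma without a trend (0.094). CYP24A1, the vitamin D target that degrades the hormone, was at 72.4 ± 10.3 and 73.3 ± 2.21 and was not called. It falls outside the naming rule.

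The LXR genes, receptors for oxysterols that raise cholesterol export and fat synthesis, were not called. NR1H2 was at 1330, 1300 and 1148 against 1117, 1186 and 1225 (0.10 ± 0.07, limma adjusted p = 0.324). NR1H3 was at 263, 295 and 254 against 235, 308 and 265 (0.01 ± 0.12, limma adjusted p = 0.942). Both genes' groups overlapped, and both signs turned with median centring. NR1H3 shares 4.17% of its exons with ACP2 on the opposite strand. Of 11 LXR targets, 10 were tested, 3 were lower and 7 not called, with a median of -0.23. Those 3 calls stand beside 41.5% of all genes and 63.1% of genes with a mean of at least 100. PLTP, a phospholipid transfer protein, fell from 5426 ± 298 to 3696 ± 370 (-0.56, limma adjusted p = 6.25e-07), SCD, a fatty acid desaturase, by 0.55 on the log2 scale, and SREBF1, the regulator of fat synthesis, by 0.30 (lost with limma without a trend). The cholesterol exporter ABCA1 was at 2017, 1199 and 1198 against 1358, 1291 and 1263 and was not called.

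NR1D1 (REV-ERBα, ENSG00000126368, chromosome 17, 40092787 to 40100725) had the largest fall of any member with more than 10 reads per library. It was at 139, 147 and 141 in resistant and 375, 373 and 332 in control libraries. The resistant libraries lay close together and far below every control, and NR1D1 fell to 0.395 of the control mean (log2 fold change -1.33 ± 0.11, 95% interval -1.57 to -1.10, limma adjusted p = 8.95e-10). Over the 17 settings the change ranged from -1.47 to -1.30. NR1D2 (REV-ERBβ), which acts on many of the same genes, was at 717, 856 and 930 against 877, 926 and 995. Its groups overlapped, and NR1D2 missed the test (-0.17 ± 0.09, limma adjusted p = 0.138). It was called lower with median centring (-0.30, limma adjusted p = 0.0104) and without resistant 3 (-0.25, limma adjusted p = 0.034). Per kilobase, NR1D1 over NR1D2 was 0.406, 0.360 and 0.318 in resistant and 0.897, 0.846 and 0.702 in control libraries. RORA, which activates the sites that REV-ERBs repress, was at 4.08, 3.69 and 0 against 0, 0 and 3.86, under the floor of 3 reads on average in both groups.

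THRA and NR1D1 lie tail to tail on opposite strands and share 263 exonic bases, which is 3.78% of THRA's and 9.49% of NR1D1's exons. Without a stated strand, reads in that stretch cannot be assigned. Both genes also lie in a stretch of chromosome 17 where most called neighbours were lower. Among the 25 tested genes on each side, the median log2 fold change was -0.46 around NR1D1 and around THRA, with 50% and 48% called lower, beside 21.1% of all genes. RARA lies in the same region (40309192 to 40357643) with a neighbourhood median of -0.50 and 50% called lower, although RARA itself was not. The medians were -0.76 and -0.49 around RARA with 10 and 50 genes on each side, and -0.50 and -0.46 around NR1D1. On chromosome 5, the surroundings of NR3C1 and NR2F1 were also low. The medians were -0.37 around NR3C1 and -0.34 around NR2F1, and neither gene was called. PPARA's neighbours had a median of 0.19, PPARG's 0.02, NR3C2's -0.05 and NR2C1's -0.23, the last against a rise in NR2C1 itself. The 25 neighbours of NR1D1, THRA and RARA overlap, so these medians are not independent.

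**Figure D4:**
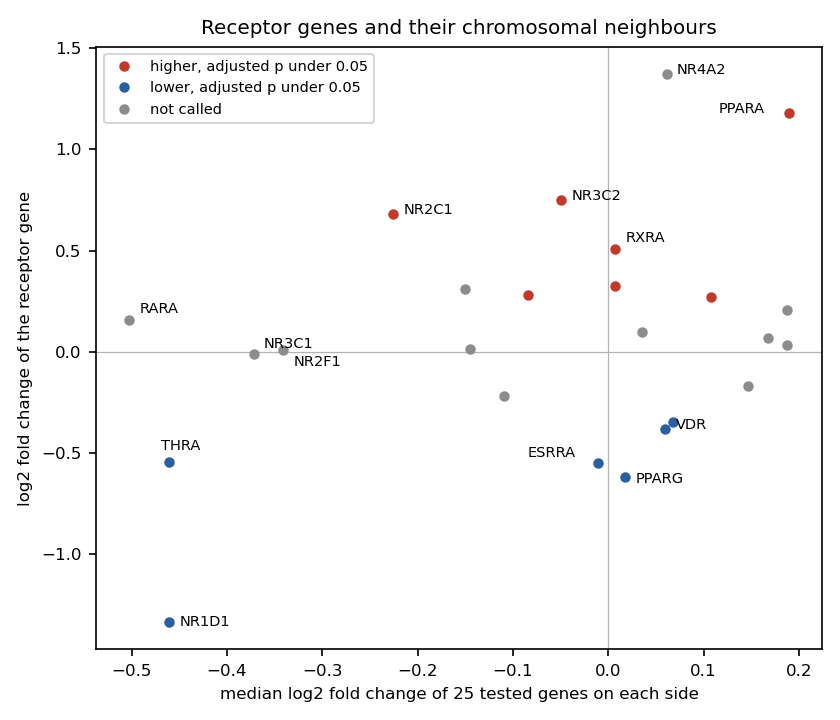
Log2 fold change of each member (vertical axis) against the median log2 fold change of its 25 tested neighbours on each side (horizontal axis), 1 point for each of the 25 members with a mean of at least 100. RARA, NR1D1, THRA, NR3C1 and NR2F1 have neighbourhood medians of -0.50 to -0.34. NR4A2 (1.37 against 0.06, not called), PPARA, NR2C1 and NR1D1 lie farthest from their neighbours' medians.

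Clock genes went both ways. Of 15 tested, 6 were higher and 5 lower, with a median of -0.02. The share called was 73.3%, beside 41.5% of all genes and 63.1% of genes with a mean of at least 100. BMAL1, an activator of the clock, rose from 173 ± 19.8 to 249.5 ± 8.76 (0.53, limma adjusted p = 0.000974). NPAS2, a CLOCK relative that pairs with BMAL1, fell from 416 ± 25.8 to 185 ± 28.2 (-1.18, limma adjusted p = 1.52e-08). CLOCK itself was not called (-0.09 ± 0.08, limma adjusted p = 0.386). NFIL3 rose from 830 ± 10.5 to 1956 ± 297 (1.22, limma adjusted p = 4.56e-11). Whether any clock gene follows NR1D1 was not tested. The E-box repressors BHLHE41 and BHLHE40, which also respond to hypoxia, rose from 180 ± 10.4 to 567 ± 90.1 (1.64) and from 6675 ± 12.1 to 13403 ± 394 (1.01). HLF, an activator of the PAR bZIP group, was at 1.02, 0.923 and 0 against 19.5, 27.0 and 22.2 and was called lower (limma adjusted p = 9.18e-07). CIART and PER3, repressors of the clock, fell by 0.57 and 0.52 on the log2 scale. A bulk measurement at a single harvest holds no clock phase, and harvest times are not given in the sources used here.

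Among orphan receptors of the NR2 and NR6 groups, which have no settled hormone ligand, 1 of 6 was called. Over all genes 41.5% were called, and 63.1% of those with a mean of at least 100. NR2C1 (TR2) was at 344, 430 and 400 in resistant and 210, 254 and 266 in control libraries. All resistant libraries were higher, and NR2C1 rose by 0.68 ± 0.11 (limma adjusted p = 2.73e-05) in all 17 settings. Its dimer partner NR2C2 (TR4) was at 1216, 1363 and 1400 against 1301, 1282 and 1297 and was not called (0.03 ± 0.07, 95% interval -0.11 to 0.18, limma adjusted p = 0.747). NR2C2 shares 10.1% of its exons with MRPS25 on the opposite strand. NR2C1 took 34.8 ± 1.39% of the pair per length in resistant and 25.4 ± 2.37% in control libraries.

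The COUP-TF genes differed little. NR2F1 was at 378, 400 and 412 against 398, 396 and 386 (0.01 ± 0.09, 95% interval -0.18 to 0.20, limma adjusted p = 0.938). NR2F2 was at 1922, 1456 and 1462 against 1394, 1430 and 1334. The groups of NR2F2 did not overlap, with resistant 1 far above the rest, and it missed the test (0.21 ± 0.09, limma adjusted p = 0.0687). It was called higher without resistant 2 (0.27, limma adjusted p = 0.0297) or resistant 3 (0.27, limma adjusted p = 0.0259), with quantile normalization, with no filter and with the replicate block. NR2F6 had the highest level per length of any member, at 48.2 ± 3.21 RPKM in resistant and 43.2 ± 3.04 in control libraries. Its counts of 1891, 2050 and 1955 against 1900, 2019 and 1707 overlapped (0.07 ± 0.07, limma adjusted p = 0.466). NR6A1, the germ cell nuclear factor, was at 158, 112 and 162 against 163, 148 and 188 and was not called (-0.22 ± 0.15, limma adjusted p = 0.269).

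Resistant library 1 stood far below resistant 2 and 3 for NR4A1 and NR4A2. NR4A1 (NUR77) was at 272, 883 and 748 in resistant and 484, 447 and 436 in control libraries. Resistant 1 lay below every control and resistant 2 and 3 above, so that NR4A1 was not called (0.31 ± 0.52, 95% interval -1.09 to 1.71, limma adjusted p = 0.696). NR4A2 (NURR1) was at 191, 634 and 633 against 153, 155 and 185. Resistant 1 was barely above the highest control, the other resistant libraries were far above it, and the test was missed (1.37 ± 0.57, 95% interval -0.16 to 2.90, limma adjusted p = 0.136). Without resistant 1, NR4A1 was called higher at 0.84 (limma adjusted p = 1.16e-10) and NR4A2 at 1.95 (limma adjusted p = 1.24e-17). Without resistant 2, NR4A1 stood at -0.01, and DESeq2 on all 6 libraries called NR4A2 higher (1.56, adjusted p = 0.01). NR4A3 (NOR1) had few reads, at 11.2, 8.31 and 21.7 against 11.3, 14.5 and 14.5, and was not called (limma adjusted p = 0.912).

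Against its own group's resistant 2 and 3, resistant 1 was lower by 1.57 for NR4A1 and by 1.73 for NR4A2 on the log2 scale. Of 11230 genes with a mean of at least 100, 9 (0.0801%) were at least 2-fold lower in resistant 1 than in both others. The balance within the subfamily did not follow that split. NR4A2 made up 55.1%, 56.6% and 60.1% of NR4A reads per kilobase in resistant libraries 1 to 3 and 36.2%, 38.0% and 42.9% in controls. All resistant libraries, resistant 1 included, lay above all controls in this share. NR4A1 shares 10.3% of its exons with NR4A1AS on the opposite strand, which lay at 8.38 against 24.9.

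Of 11 coactivators, which receptors recruit to turn genes on, 4 were lower and 7 not called. That share of 36.4% compares with 41.5% of all genes and with 63.1% of genes with a mean of at least 100. Only PPARGC1A was near 0 (mean 0.658 in resistant and 2.02 in control libraries). The median of the list was -0.16. PPARGC1B (PGC-1β), a partner of ESRRA and the PPARs, fell from 232 ± 21.3 to 88.5 ± 20.2 (-1.40, limma adjusted p = 1.17e-07). MED1, the Mediator subunit that contacts nuclear receptors, fell from 1498 ± 84.7 to 726 ± 142 (-1.06, limma adjusted p = 1.64e-05). It lies on chromosome 17 (39404285 to 39451286), as THRA and NR1D1 do, and its own neighbours were not examined. PPRC1, a relative of PGC-1, fell from 1469 ± 79.2 to 715 ± 110 (-1.05). NCOA3, a p160 coactivator amplified in some cancers, changed by -0.32 and lost its call with limma without a trend. The acetyltransferase genes CREBBP and EP300 and the methyltransferase gene CARM1 were not called.

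Corepressors were called in 5 of 8, 4 lower and 1 higher. That 62.5% is near the 63.1% called among genes with a mean of at least 100, and 41.5% of all genes were called. NRIP1, which represses metabolic receptor targets, fell from 828 ± 54.4 to 541 ± 16.6 (-0.61, limma adjusted p = 1e-06), HDAC3, the deacetylase of the NCOR1 complex, by 0.35 on the log2 scale, and TBL1X by 0.22. GPS2, a subunit of that complex, was at -0.94, but 44.7% of its exons are shared with another gene on the same strand. That gene was near 0 (mean 0.615 in resistant and 0.346 in control libraries). GPS2 also shares 7.80% of its exons with EIF5A on the opposite strand, which lay at 7710 against 13453. TBL1XR1 rose by 0.27, a call lost with median centring and with limma without a trend. TBL1X lost its call without control 1 (-0.19, limma adjusted p = 0.0874), with quantile normalization and with limma without a trend, and HDAC3 with the last. The scaffold NCOR1 was not called. HDAC3 lies on chromosome 5, as NR3C1 does, and its neighbours were not examined either.

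**Figure D5:**
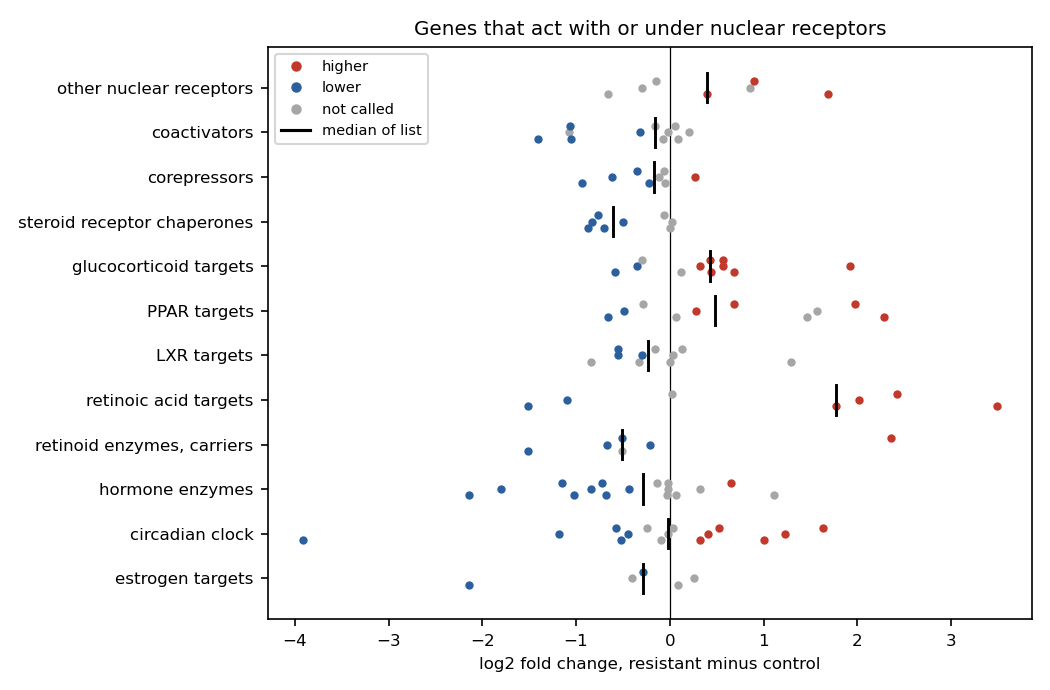
Log2 fold change (horizontal axis, resistant minus control) of every tested gene in the 12 gene lists around the receptors, 1 point per gene, coloured by call, with a bar at each list's median. The chaperone list has its median at -0.60 and the retinoic acid target list at 1.78. The glucocorticoid target list holds 7 higher and 2 lower calls of 11 tested, where 41.5% of all genes were called.

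Of the other 15 genes of the family, 11 had a row and 7 were tested, of which 3 were higher and 4 not called, with a median of 0.40. The 42.9% called is near the 41.5% of all genes. NR1I3 (CAR), a sensor of foreign compounds, was at 28.6, 29.5 and 26.6 against 9.24, 16.6 and 20.2 and rose by 0.90 (limma adjusted p = 0.0266). That call was lost without control 1 (0.59, limma adjusted p = 0.153) and without resistant 2 (0.87, limma adjusted p = 0.0777). It was also lost with DESeq2, limma without a trend, median centring and quantile normalization, 6 of 17 settings in all, and 661 of its exonic bases are shared with TOMM40L on the opposite strand. NR1I2 (PXR), outside the naming rule, was at 5.10, 4.61 and 6.91 against 3.08, 0 and 0.964.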

How the data were processed

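Total RNA libraries (NEBNext Ultra and SMARTer kits, per the labels' protocols) have the genome build GRCh38 in the submitters' processing notes. Alignment, counting, normalization and strand handling are not given in the sources used here. Per library, the authors deposited a signal value for each of 30330 Ensembl genes, with a gene length. All values (100%) were whole multiples of 1 step per library within 0.001 reads, so the signal is reads divided by 1 size factor, called normalized read count here. Whole reads were recovered from the steps. Coordinates matched GENCODE 29 for all genes, and 30078 had a symbol.

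Genes with a value of at least 1 in 3 or more libraries entered the test, by limma-trend 3.58.1 in R 4.3.3 (robust empirical Bayes) on log2(value + 1), resistant against control, two-sided, with Benjamini-Hochberg adjustment over all genes and a threshold of 0.05. This scale understates changes of genes with few reads. Exact permutation of 3 against 3 cannot go below p = 0.1, so none was run. RPKM used the deposited length, only to set genes beside each other. The fit was tested on simulated data. Promoters came from RefSeq (GRCh38.p14).

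Alternatives were limma without a trend, quantile normalization, pseudocounts of 0.1 and 0.01, a minimum of 5 in place of 1, dropping the filter, median centring, the replicate number as a block, and each library left out. Count tests on recovered whole reads were edgeR 4.0.16, DESeq2 1.42.0 and limma-voom. edgeR called 5002 genes higher and 5157 lower, DESeq2 4239 and 4587.

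Members and the 12 gene lists were chosen with earlier results of these data known. Members past the threshold, or with a mean of 100 or more, are given in every library. Of each list, up to 4 called genes per direction with the largest change and a mean of at least 20 are named, and all of a direction with 2 or fewer. Some list genes are not reported here. Of the remaining genes named, each was chosen after its values were seen.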

Additional observations from a re-analysis of the deposited data

How the results depend on the processing

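Of the 14 called members, 7 kept direction and call in all 17 settings (NR3C2, ESRRA, PPARA, PPARG, THRA, NR1D1 and NR2C1), and none of the 14 changed sign. Of 55 named list genes, 39 kept both. The count of higher members, 7, became 3 with limma without a trend, 4 with median centring and 5 to 9 with 1 library left out. The count of lower members, 7, became 4 with limma without a trend and 6 to 8 with 1 library left out. The members' median, 0.08, became -0.051 with median centring, 0.033 with a minimum of 5, 0.14 with quantile normalization and 0.050 to 0.11 with 1 library left out. By construction, centring moves every gene alike. The causes of the other changes were not tested.

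Sign changes were seen in 9 uncalled members. NR3C1 stood at 0.0011 with DESeq2, 0.0024 with edgeR, 0.076 with quantile normalization and -0.14 to 0.061 with 1 library left out. Median centring gave -0.037 for NR1H2, -0.12 for NR1H3, -0.10 for NR2C2, -0.12 for NR2F1 and -0.064 for NR2F6. With 1 library left out, NR1H3 ranged from -0.080 to 0.11, NR2C2 from -0.0069 to 0.095, NR2F1 from -0.017 to 0.045, RARB from -0.41 to 0.91 and NR4A1 from -0.011 to 0.84. NR4A3 stood at 0.029 with DESeq2, 0.027 with edgeR and -0.43 to 0.21 with 1 library left out.

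Same-numbered libraries did not deviate together: their correlations were -0.0015, 0.0001 and 0.0067, and resistant 1 and 2 correlated better with a differently numbered control. The replicate block gave 7 higher and 7 lower members, 13 of the 14 calls shared, and 5003 higher and 5172 lower genes. Depth limits ESR1, ESR2, RARB, RORA and NR4A3, whose libraries hold few reads.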

Other observations

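The 9 genes with a mean of at least 100 that were at least 2-fold lower in resistant library 1 than in resistant 2 and 3 were PDK4, TFRC, LIPG, AREG, NR4A1, NR4A2, IL24, HSPA1B and GPAT2P1, chosen after the values were seen. Besides the NR4A receptors, they include the PPAR target PDK4, the heat shock gene HSPA1B (375 against 841 and 977) and the transferrin receptor TFRC (1721 against 3673 and 3631). In controls, HSPA1B was at 580, 583 and 553 and TFRC at 8284, 8206 and 8277. In the other direction, 19 of the 11230 genes (0.169%) were at least 2-fold higher in resistant 1.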
